A study of Mus musculus with 6 samples.

Results

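Genes of pre-mRNA splicing were compared between the lungs of mice that had breathed hydrogen gas and those of control mice. The genes were taken by name: a probe set belonged to them when the platform annotation gave it exactly 1 gene symbol and that symbol began as Hnrnp, Snrp or U2af, or was an Srsf, Sf3a, Sf3b or Prpf symbol followed by a number. This gave 143 probe sets of 60 genes, out of 45037 probe sets and 17097 genes on the array. A probe set is a group of short oligonucleotides that read 1 stretch of a transcript, and 39 of the 60 genes had 2 or more of them, up to 6. All mice were male BALB/c, aged 10 weeks. The control group of 3 mice was kept in normal air, and the hydrogen group of 3 mice was kept in air that held 2% hydrogen gas for 3 weeks. RNA of the whole lung of each mouse was hybridised to its own 3′-biased expression array. Values are the deposited log2 signals, and a difference is the hydrogen mean minus the control mean on that scale.

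Splicing removes introns from nascent transcripts. The Sm proteins form the ring around the small nuclear RNAs of the spliceosome, U2AF and the SF3 complexes recognise the end of the intron and the branch point, and the Prpf proteins build and rearrange the later complexes. SR proteins mostly promote and hnRNP proteins often repress the use of an exon. Many SR and hnRNP genes are known to limit their own expression by making transcript forms with an additional exon or a retained stretch that leads to decay, so that different parts of 1 gene can have different RNA levels. In a whole organ, fewer cells of a type and less RNA per cell cannot be told apart.

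The changes of these genes were uneven, to a degree near that of the whole array. Of pairs of probe sets of 1 gene, 43.4% changed unequally, beside 44.1% on the array. The largest changes lay in 1 or 2 probe sets of genes whose other probe sets moved less or the other way. Snrpn, the gene of the Sm protein SmN, was 1.82-fold higher in the hydrogen group by its brightest probe set. Probe sets of the SR protein genes Srsf10 and Srsf3 were 2.08-fold and 1.92-fold lower, and a probe set of the SF3B subunit gene Sf3b4 was 1.76-fold higher. Of the 143 probe sets, 67 passed an adjusted p of 0.05 (limma, Benjamini-Hochberg over all probe sets), which is 46.9%, beside 47.1% of all probe sets on the array. Among them 15 were higher (10.5%, beside 24.3% of the array) and 52 lower (36.4%, beside 22.8%). By the brightest probe set of each gene, 4 of 60 genes were higher (6.67%, beside 26.1% of all genes): Snrpn, Sf3a2, Srsf3 and Hnrnpa3. A further 20 were lower (33.3%, beside 26.4%), and 36 did not pass. The split depended on how the arrays were scaled to each other. After renewed quantile normalisation 26 probe sets were higher (18.2%, beside 18.7% of the array) and 20 lower (14%, beside 16.8%). After cyclic loess 24 were higher (16.8%, beside 17%) and 26 lower (18.2%, beside 18.4%), so under both scalings the shares were near those of the array. After centring each array on its median 9 were higher (6.29%, beside 14.2%) and 78 lower (54.5%, beside 32.4%). By gene, quantile normalisation gave 14 higher (23.3%, beside 23.1% of genes) and 5 lower (8.33%, beside 14.7%), cyclic loess 13 higher (21.7%, beside 20.6%) and 7 lower (11.7%, beside 16.2%), and centring 2 higher (3.33%, beside 16.1%) and 34 lower (56.7%, beside 36.4%). The median difference of the 143 probe sets was -0.13 as deposited, 0.02 after quantile normalisation and -0.22 after centring, beside 0.02, 0.01 and -0.07 for the array. The groups did not overlap for 79 of the 143 probe sets (55.2%), beside 57.3% of the array. Without control replicate 1 or hydrogen replicate 2 the lower genes numbered 13.

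**Figure D1:**
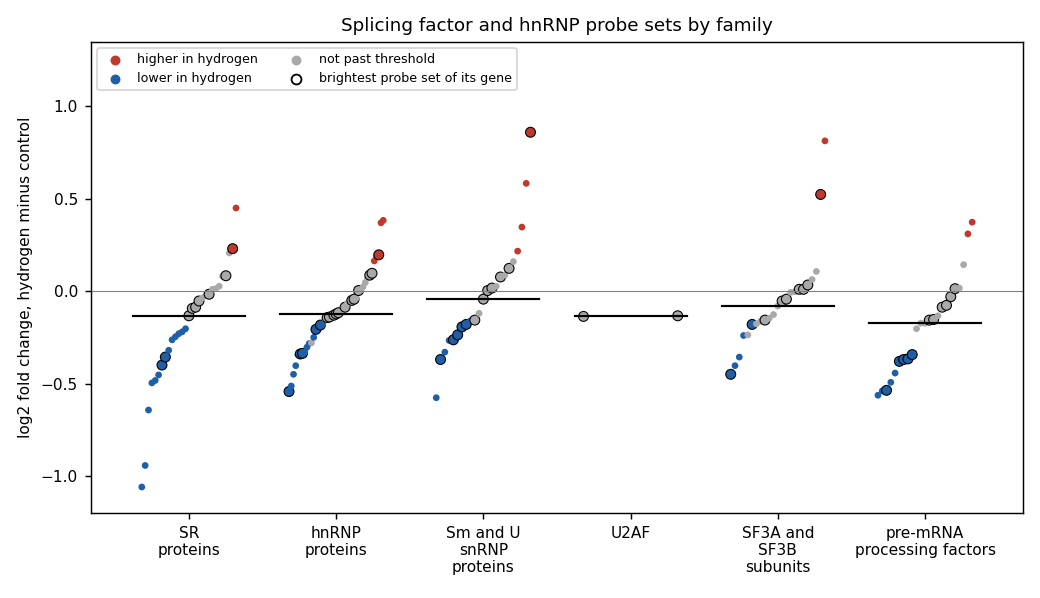
Each point is 1 of the 143 probe sets, by family on the x axis and by its log2 fold change (hydrogen minus control) on the y axis; colours mark the limma call, outlined points the brightest probe set of a gene, and bars the median of each family. Blue points outnumber red ones among the deposited values (52 against 15, but 20 against 26 after renewed quantile normalisation), and the extremes reach from -1.06 (Srsf10) to 0.86 (Snrpn).

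Of 29 probe sets of SR protein genes, 14 were lower as deposited (48.3%, beside 22.8% of the array) and 2 higher (6.9%, beside 24.3%). After renewed quantile normalisation 6 were lower (20.7%, beside 16.8%) and 7 higher (24.1%, beside 18.7%). After cyclic loess 7 were lower (24.1%, beside 18.4%) and 6 higher (20.7%, beside 17%). Srsf3, the smallest SR protein, had 6 probe sets. The brightest, 1416150_PM_a_at, had log2 signals of 9.58, 9.50 and 9.58 in the controls and 9.83, 9.79 and 9.73 in the hydrogen group, a difference of 0.23 (SE 0.06, adjusted p = 0.011). The dimmest, 1438215_PM_at, had 6.48, 6.65 and 6.73 in the controls and 5.80, 5.66 and 5.57 in the hydrogen group. It was lower by -0.94 (SE 0.08, adjusted p = 0.000283), and every hydrogen array was below every control array. The other 4 probe sets of Srsf3 had differences from -0.02 to 0.08, none past the threshold. The rise of the brightest one was 0.14 and no longer past the threshold when the arrays were centred on their medians.

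Srsf10, an SR protein known for acting as a splicing repressor when it is dephosphorylated, showed a graded pattern over its 4 probe sets. The probe set 1418527_PM_a_at fell from 6.00, 5.58 and 5.61 in the controls to 4.68, 4.83 and 4.50 in the hydrogen group, a difference of -1.06 (SE 0.12, adjusted p = 0.000573). The next, 1418526_PM_at, fell by 0.45 (SE 0.08, adjusted p = 0.0034), with 7.03, 6.88 and 6.72 in the controls and 6.35, 6.42 and 6.50 in the hydrogen group. The 2 brighter probe sets differed by -0.20 (adjusted p = 0.0158) and -0.09 (adjusted p = 0.371), so that the dimmer a probe set of this gene was, the larger was its difference. Of the brighter ones, 1449121_PM_at was at 0.02 after renewed quantile normalisation and did not pass after cyclic loess either, and the brightest was at 0.13 and 0.10 after quantile normalisation and cyclic loess, with its sign turned.

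The promoters of Srsf3 and Srsf10 are shown because the RefSeq table (GRCm38.p6) lists a single start for each, so the table gives no second start to which their unequal probe sets could be assigned. Both windows hold the 250 bases before the start on the plus strand: chr17:29032410-29032659 for Srsf3 and chr4:135855821-135856070 for Srsf10. Capitals mark, on either strand, the CCAAT box (CCAAT) in both windows. In Srsf3 they also mark a TATA box string (TATAAA) and the core of a CREB site (TGACG), and in Srsf10 the GC box (GGGCGG). The Srsf10 window also holds the letters of that CREB core on the other strand (cgtca), which were left in lower case.
Srsf3: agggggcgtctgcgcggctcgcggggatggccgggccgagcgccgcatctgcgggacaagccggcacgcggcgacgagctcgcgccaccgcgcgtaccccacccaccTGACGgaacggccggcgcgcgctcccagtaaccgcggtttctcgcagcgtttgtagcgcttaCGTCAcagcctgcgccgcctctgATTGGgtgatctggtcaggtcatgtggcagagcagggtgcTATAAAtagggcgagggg
Srsf10: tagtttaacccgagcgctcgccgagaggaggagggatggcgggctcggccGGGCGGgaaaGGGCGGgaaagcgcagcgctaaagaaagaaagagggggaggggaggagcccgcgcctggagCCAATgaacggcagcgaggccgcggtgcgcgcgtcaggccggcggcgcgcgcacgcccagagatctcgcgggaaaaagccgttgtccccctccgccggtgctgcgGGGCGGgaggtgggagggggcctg
The Srsf3 window had a G and C content of 69.6% and 35 CG dinucleotides, and the Srsf10 window 72.0% and 33. Windows were found for 52 of the 60 genes, 70 in all, and they had a median of 19 CG dinucleotides, beside 6 over all 32851 windows of the table. CCAAT stood in 50% of the splicing windows and 33.8% of all windows, GGGCGG in 60% and 32.7%, TGACG in 37.1% and 17.8%, TATAAA in 8.57% and 12.4%, and GCATGC in 15.7% and 6.7%. None of these strings contains another, and they were chosen after the sequences had been seen. A match describes letters and no binding was measured here.

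Srsf1, an SR protein that promotes exon use and spliceosome assembly, had a similar inequality. Its 2 bright probe sets, near a log2 signal of 10, differed by -0.13 (adjusted p = 0.111) and -0.23 (adjusted p = 0.024), the latter a call lost when any of control replicates 1 and 2 and hydrogen replicates 1 and 2 was left out (-0.24 to -0.18) and after quantile normalisation or cyclic loess (-0.14 and -0.12). The probe set 1428100_PM_at had 7.36, 7.33 and 7.06 in the controls and 6.45, 6.53 and 6.84 in the hydrogen group, a difference of -0.64 (SE 0.12, adjusted p = 0.00294), with no overlap between the groups. The dimmest, 1452430_PM_s_at, differed by -0.32 (adjusted p = 0.0368), and by -0.11 and -0.14, not past the threshold, after quantile normalisation and cyclic loess. Srsf2, the gene of the SR protein SC35, went the other way in 1 probe set: 1427816_PM_at had 6.00, 6.12 and 6.03 in the controls and 6.61, 6.36 and 6.53 in the hydrogen group, higher by 0.45 (SE 0.07, adjusted p = 0.00212). A brighter probe set of Srsf2, 1452439_PM_s_at, was lower by -0.26 (adjusted p = 0.0441), but it lost that call when any of control replicates 1 and 3 and hydrogen replicates 1, 2 and 3 was left out (-0.29 to -0.21), and it was -0.09 and -0.10 after quantile normalisation and cyclic loess. The brightest one of Srsf2 differed by -0.09 (adjusted p = 0.254), with 0.01 and 0.03 after quantile normalisation and cyclic loess.

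All 3 probe sets of Srsf11, an SR-related protein of 3′ splice sites, were lower, by -0.36, -0.48 and -0.50 (adjusted p = 0.0102, 0.000547 and 0.00422), the first of which did not pass after quantile normalisation (-0.20) or cyclic loess (-0.21). For 1427269_PM_at the signals were 7.34, 7.44 and 7.33 in the controls and 6.86, 6.91 and 6.89 in the hydrogen group. Srsf4, which has 1 probe set, had 8.64, 8.68 and 8.81 in the controls and 8.21, 8.35 and 8.37 in the hydrogen group, a difference of -0.40 (SE 0.07, adjusted p = 0.00258). After renewed quantile normalisation it was -0.20 and not past the threshold. The remaining SR genes Srsf6, Srsf9 and Srsf12 had brightest probe sets between -0.05 and 0.08, none past the threshold. Of the 4 probe sets of Srsf6, however, 1448454_PM_at (-0.25, adjusted p = 0.0207) and 1416721_PM_s_at (-0.22, adjusted p = 0.0341) were lower as deposited. Neither passed after quantile normalisation (-0.11 and -0.05) or cyclic loess (-0.11 and -0.05); Srsf6 is named after its values were seen.

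**Figure D2:**
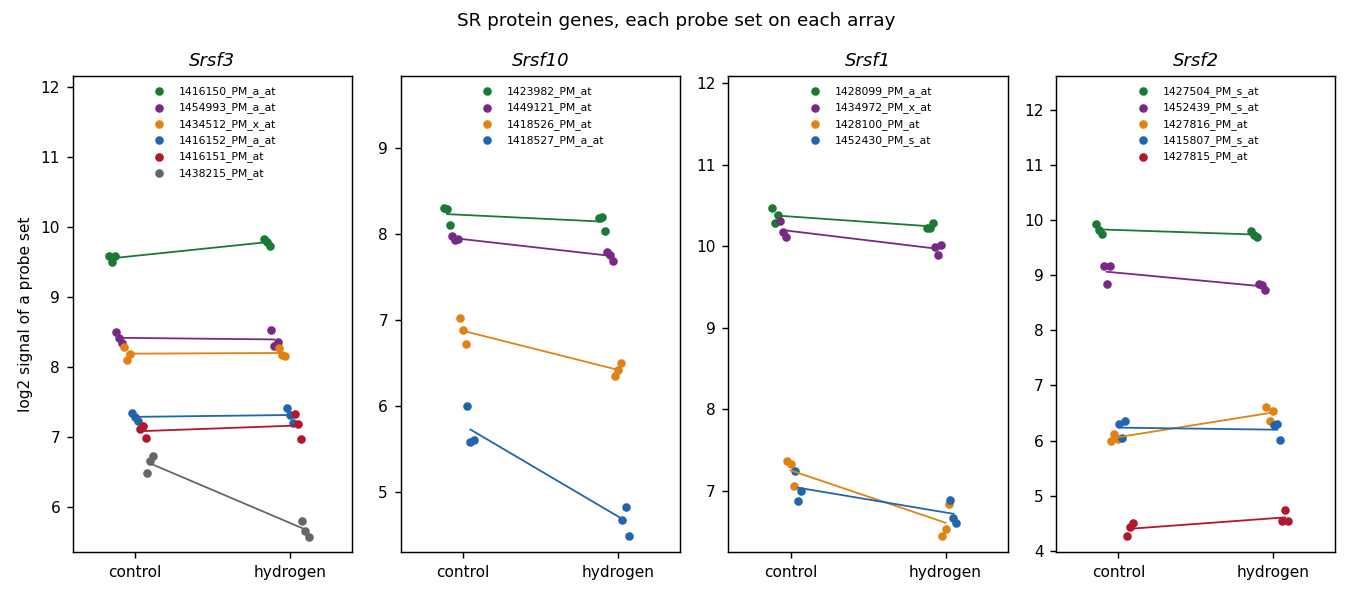
Log2 signal (y axis) of every probe set of Srsf3, Srsf10, Srsf1 and Srsf2 on each control and each hydrogen array; points are arrays, lines join the group means, and colours mark probe sets in order of brightness. The steepest lines are those of the dimmest probe sets of Srsf3 (-0.94) and Srsf10 (-1.06), while the line of 1427816_PM_at of Srsf2 rises by 0.45.

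The hnRNP proteins coat nascent RNA. Of 43 probe sets of their genes, 15 were lower as deposited (34.9%, beside 22.8% of the array) and 5 higher (11.6%, beside 24.3%). After renewed quantile normalisation 5 were lower (11.6%, beside 16.8%) and 6 higher (14%, beside 18.7%). After cyclic loess 6 were lower (14%, beside 18.4%) and 6 higher (14%, beside 17%). Hnrnpab, which binds AU-rich RNA, fell most by its brightest probe set, 1426114_PM_at: 10.59, 10.43 and 10.25 in the controls and 9.89, 9.91 and 9.84 in the hydrogen group, a difference of -0.54 (SE 0.08, adjusted p = 0.00163). Its 4 other probe sets differed by -0.19 to 0.07, and the 1 of them that passed, at -0.19 (adjusted p = 0.0469), lost its call on leaving out any array but control replicate 2 (-0.22 to -0.14) and after quantile normalisation or cyclic loess (-0.10 and -0.07). Hnrnpll, a regulator of Ptprc splicing in lymphocytes, was lower in both probe sets (-0.34 and -0.45, adjusted p = 0.00412 and 0.00739), and neither passed after quantile normalisation (-0.14 and -0.23) or cyclic loess (-0.16 and -0.25). Hnrnpdl, a relative of Hnrnpd, was lower in 3 of 4 probe sets. The brightest had 10.97, 10.96 and 11.00 in the controls and 10.65, 10.63 and 10.64 in the hydrogen group (-0.34, SE 0.05, adjusted p = 0.00135), and 1424252_PM_at (-0.18) lost its call on leaving out any array but control replicate 2 (-0.20 to -0.15). After quantile normalisation and cyclic loess that probe set was near 0, and the third, 1449039_PM_a_at (-0.30 as deposited), was -0.08 and -0.11 and did not pass. Hnrnph1, which binds G-rich RNA, was lower by -0.21 (adjusted p = 0.0194) and lost the call without control replicate 1, hydrogen replicate 2 or hydrogen replicate 3 (-0.18, -0.20 and -0.19) and after quantile normalisation or cyclic loess (-0.13 and -0.12).

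Hnrnpa1, Hnrnpa2b1 and Hnrnpa3, whose proteins bind silencers in exons and introns, had probe sets that rose or that disagreed. Hnrnpa1 was higher in 2 of 3 probe sets: 1430020_PM_x_at had 8.07, 7.92 and 8.11 in the controls and 8.47, 8.37 and 8.37 in the hydrogen group (0.37, SE 0.07, adjusted p = 0.00308), and 1430019_PM_a_at differed by 0.38 (adjusted p = 0.0139). Its brightest probe set differed by 0.09 (95% confidence interval -0.10 to 0.27), which became 0.28 and 0.26, past the threshold, after quantile normalisation and cyclic loess. Hnrnpa2b1 had 1 probe set near 0 (0.00), 2 lower (-0.28 and -0.34, adjusted p = 0.0054 and 0.011) and 1 higher (0.19, adjusted p = 0.0434). The lower probe set 1420365_PM_a_at had 10.41, 10.29 and 10.28 in the controls and 10.08, 10.04 and 10.01 in the hydrogen group. The higher one lost its call when any of control replicates 1 and 3 and hydrogen replicates 2 and 3 was left out (0.15 to 0.19). The lower probe set 1433830_PM_at, at -0.34, was -0.13 and -0.15 after quantile normalisation and cyclic loess and did not pass. Hnrnpa3 was higher in its brightest probe set (0.20, adjusted p = 0.023) and lower in 1451184_PM_at (-0.25, adjusted p = 0.0107). The rise did not pass without control replicate 3 (0.16) or hydrogen replicate 1 (0.17), and the fall did not pass after quantile normalisation or cyclic loess (-0.10 and -0.11).

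Of 23 probe sets of genes of Sm and other U snRNP proteins, 9 were lower as deposited (39.1%, beside 22.8% of the array). A further 4 were higher (17.4%, beside 24.3%). After quantile normalisation 1 was lower (4.35%, beside 16.8%) and 6 higher (26.1%, beside 18.7%). After cyclic loess 1 was lower (4.35%, beside 18.4%) and 6 higher (26.1%, beside 17%). Snrpn, an imprinted gene whose protein takes the place of SmB mainly in brain and heart, had the largest rise of all 60 genes. Its brightest probe set, 1415895_PM_at, had 8.97 to 9.05 in the 3 controls and 9.81, 9.94 and 9.85 in the hydrogen group, a difference of 0.86 (SE 0.06, adjusted p = 0.000205). The second, 1415896_PM_x_at, had 8.02, 8.02 and 7.97 in the controls and 8.62, 8.70 and 8.44 in the hydrogen group (0.58, SE 0.07, adjusted p = 0.000718). The dimmest, at 3.66 to 4.03 on all arrays, differed by 0.09 (adjusted p = 0.491). Both rises held after cyclic loess, where the first was 1.00. Further probe sets that name both Snurf and Snrpn were left out by the single-symbol rule, and their values are not given here. Snrpb, the gene of SmB itself, differed by -0.16 and -0.12 in its 2 probe sets (adjusted p = 0.0796 and 0.219).

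Unlike Srsf3 and Srsf10, Snrpn has 4 starts in the RefSeq table, spread over chromosome 7 on the minus strand. The 100 bases before each start are shown, with the letters GCATGC in capitals, because 3 of the 4 resemble each other; the coordinates are chr7:60005200-60005299, chr7:60047979-60048078, chr7:60140226-60140325 and chr7:60450178-60450277 in that order.
Snrpn start 1: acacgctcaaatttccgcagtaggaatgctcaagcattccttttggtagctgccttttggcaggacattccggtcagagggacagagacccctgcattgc
Snrpn start 2: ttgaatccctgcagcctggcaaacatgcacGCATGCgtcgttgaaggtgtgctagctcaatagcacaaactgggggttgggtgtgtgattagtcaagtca
Snrpn start 3: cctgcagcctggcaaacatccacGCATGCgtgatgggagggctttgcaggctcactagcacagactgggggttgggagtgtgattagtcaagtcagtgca
Snrpn start 4: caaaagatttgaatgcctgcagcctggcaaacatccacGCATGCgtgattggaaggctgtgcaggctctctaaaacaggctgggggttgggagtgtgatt
GCATGC, a string that reads the same on both strands, stood once in starts 2, 3 and 4 and not in start 1. These windows hold 2 or 3 CG dinucleotides in 100 bases. The probe sets do not tell which start was used.

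The other Sm protein genes differed less. Snrpd3, the gene of SmD3, was lower in its brightest probe set, with 9.10, 9.06 and 9.10 in the controls and 8.84, 8.57 and 8.74 in the hydrogen group (-0.37, SE 0.07, adjusted p = 0.00459). After quantile normalisation and cyclic loess the difference was -0.20 in both and did not pass. Its dim probe set 1422885_PM_at was higher by 0.22 (adjusted p = 0.0204), a call lost without control replicate 2 (0.18), hydrogen replicate 1 (0.20) or hydrogen replicate 3 (0.19), and after centring (0.13), quantile normalisation (0.16) or cyclic loess (0.12). Snrpb2, the U2 snRNP protein B″, was lower in 2 of 3 probe sets (-0.26 and -0.33, adjusted p = 0.0105 and 0.0146), neither past the threshold after quantile normalisation (-0.04 and -0.10) or cyclic loess (-0.06 and -0.13), nor the second on leaving out control replicate 1 (-0.29). Snrpd1 and Snrpd2, the genes of SmD1 and SmD2, had small differences of -0.19 and -0.18 (adjusted p = 0.0217 and 0.0362), which were 0.04 and -0.02 after quantile normalisation and 0.01 and -0.03 after cyclic loess, not past the threshold. Leaving out control replicate 1 ended both calls (-0.17 and -0.14), as did hydrogen replicate 2 (-0.18 and -0.19); hydrogen replicate 3 ended that of Snrpd1 (-0.18), and control replicate 2 (-0.19) and hydrogen replicate 1 (-0.16) that of Snrpd2.

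The SF3A and SF3B subunits hold the U2 snRNP at the branch point. Of their 23 probe sets 5 were lower as deposited (21.7%, beside 22.8% of the array) and 2 higher (8.7%, beside 24.3%). After quantile normalisation 3 were lower (13%, beside 16.8%) and 4 higher (17.4%, beside 18.7%). After cyclic loess 4 were lower (17.4%, beside 18.4%) and 3 higher (13%, beside 17%). Sf3a2 was higher in its only probe set, with 4.97, 5.06 and 5.09 in the controls and 5.63, 5.53 and 5.53 in the hydrogen group (0.52, SE 0.06, adjusted p = 0.000528). Sf3b4 had a bright probe set without a detected change (0.01, 95% confidence interval -0.17 to 0.19) and a dimmer one, 1436784_PM_x_at, that rose from 6.59, 6.74 and 6.77 to 7.46, 7.54 and 7.54 (0.81, SE 0.07, adjusted p = 0.000234). The ending x_at marks, by the platform's naming, a probe set whose probes may also match other transcripts. Sf3b6, which contacts the branch point adenosine, was lower in 1417054_PM_a_at (-0.45, SE 0.06, adjusted p = 0.000663). That probe set had 9.17, 9.14 and 9.07 in the controls and 8.64, 8.68 and 8.71 in the hydrogen group. The second probe set of Sf3b6 differed by -0.13 (adjusted p = 0.227) and the third by -0.0067.

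Sf3b1, the largest subunit, had differences of -0.16, -0.40 and -0.24 in its 3 probe sets, of which the second passed (adjusted p = 0.00385, but -0.21 and not past the threshold after quantile normalisation). Sf3b5 was lower by -0.18 (adjusted p = 0.0362) and lost that call on leaving out any array but hydrogen replicate 3 (-0.19 to -0.15). After quantile normalisation and cyclic loess it was near 0 (-0.0042 and -0.0095). These values are of the brightest probe set of Sf3b5, and the others differed by -0.18 and 0.06. The brightest probe sets of Sf3a1, Sf3a3, Sf3b2 and Sf3b3 differed by -0.05, 0.01, -0.04 and 0.03, none past the threshold as deposited. That of Sf3a3 was 0.24 after quantile normalisation and 0.21 after cyclic loess, past the threshold in both. A dim probe set each of Sf3a1 and Sf3a3 was lower by -0.24 and -0.36 (adjusted p = 0.0355 and 0.0407). The first did not pass when any of control replicates 1 and 2 and hydrogen replicate 1 was left out (-0.25 to -0.16). The second did not pass when any of control replicates 1 and 3 and hydrogen replicates 2 and 3 was left out (-0.37 to -0.22). The subunits of U2AF, which bind the polypyrimidine tract and the 3′ splice site, differed by -0.14 (U2af1, 95% confidence interval -0.29 to 0.02) and -0.13 (U2af2, -0.26 to -0.01). Their adjusted p were 0.125 and 0.0755. After quantile normalisation both were at or above 0.03, and after centring both were past the threshold, at -0.23 and -0.22.

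**Figure D3:**
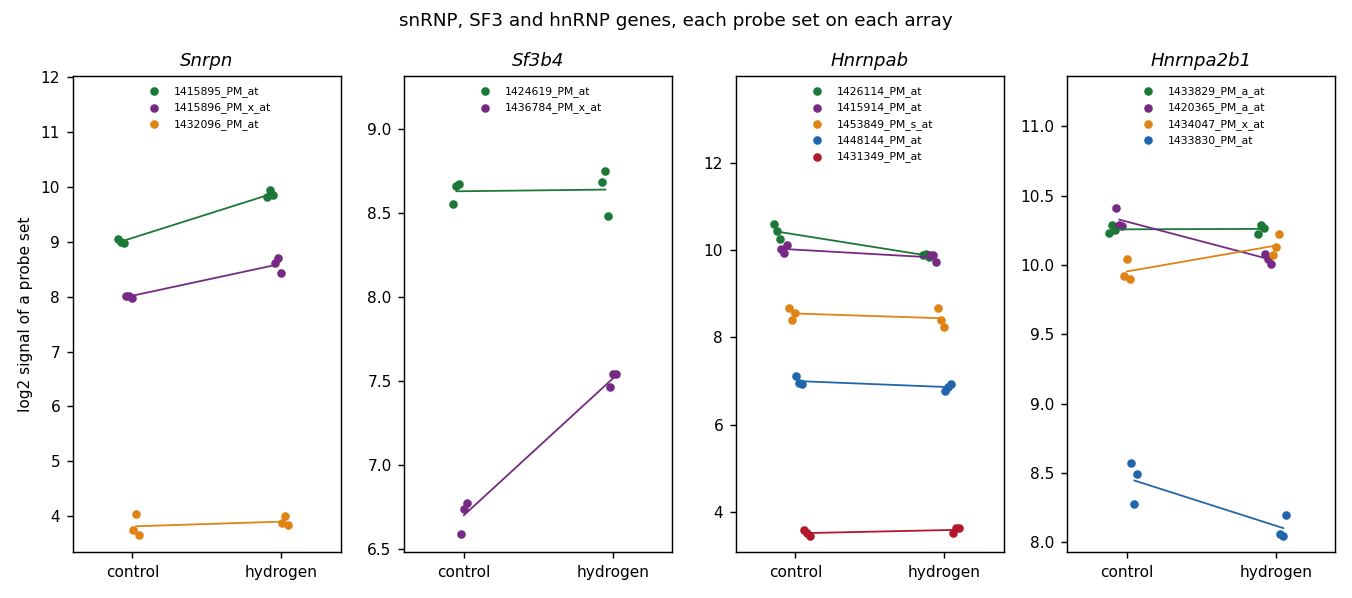
Log2 signal (y axis) of every probe set of Snrpn, Sf3b4, Hnrnpab and Hnrnpa2b1 on each control and each hydrogen array; points are arrays, lines join group means and colours mark probe sets. The 2 brighter Snrpn probe sets rise by 0.86 and 0.58, 1 of the 2 Sf3b4 probe sets rises by 0.81, and the 4 Hnrnpa2b1 probe sets run in different directions.

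Of 11 Prpf genes, 6 were lower as deposited by the brightest probe set (54.5%, beside 26.4% of all genes) and 0 higher (0%, beside 26.1%). After quantile normalisation 2 were lower (18.2%, beside 14.7%) and 2 higher (18.2%, beside 23.1%). After cyclic loess 3 were lower (27.3%, beside 16.2%) and 2 higher (18.2%, beside 20.6%). By probe set 9 of 23 were lower as deposited (39.1%, beside 22.8% of the array) and 2 higher (8.7%, beside 24.3%). After quantile normalisation 5 probe sets were lower (21.7%, beside 16.8%) and 3 higher (13%, beside 18.7%). After cyclic loess 8 were lower (34.8%, beside 18.4%) and 3 higher (13%, beside 17%). Prpf38b was lower in both probe sets: 1456506_PM_at had 6.14, 6.08 and 5.91 in the controls and 5.59, 5.50 and 5.42 in the hydrogen group (-0.54, SE 0.08, adjusted p = 0.00111), and the other also differed by -0.54 (adjusted p = 0.00848). Prpf31, a tri-snRNP protein, had 6.13, 6.04 and 6.24 in the controls and 5.65, 5.80 and 5.82 in the hydrogen group by its brightest probe set (-0.38, SE 0.07, adjusted p = 0.00396). The other probe set of Prpf31 differed by -0.17. Prpf3, also a tri-snRNP protein, and Prpf18, a second-step factor, were both lower by -0.37 (adjusted p = 0.0129 and 0.00227). Neither passed after quantile normalisation (-0.26 and -0.13). After cyclic loess Prpf3 passed (-0.28) and Prpf18 did not (-0.17).

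Prpf4b, a kinase of the spliceosome, had 6 probe sets. The brightest and 3 others were lower, by -0.34 to -0.56, with 1436427_PM_at at 7.54, 7.35 and 7.47 in the controls and 6.77, 6.94 and 6.96 in the hydrogen group (-0.56, SE 0.07, adjusted p = 0.000878). The dimmest, 1451732_PM_at, was higher, with 4.41, 4.58 and 4.47 in the controls and 4.79, 4.94 and 4.66 in the hydrogen group (0.31, SE 0.08, adjusted p = 0.015). Without control replicate 1 or hydrogen replicate 2 that rise was 0.27 or 0.24 and did not pass, nor did it after centring (0.22), quantile normalisation (0.21) or cyclic loess (0.17). The fall of the brightest (-0.34) was -0.17 after both quantile normalisation and cyclic loess and did not pass, and that of 1425498_PM_at (-0.49) was -0.26 and did not pass after quantile normalisation. The fall of 1425497_PM_a_at (-0.44) did not pass when control replicate 1 or 3, or in turn hydrogen replicate 2 or 3, was left out (-0.50 to -0.29). Prpf8, the scaffold at the centre of the spliceosome, differed by -0.09 (95% confidence interval -0.21 to 0.04, adjusted p = 0.215).

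Probe sets of 1 gene were compared directly by testing, on each array, the brightest probe set minus each other one. This removes any change common to the gene. It does not remove a shift that differs with brightness, and the decile medians of all probe sets ran from 0.15 to -0.23. Of 83 such pairs, 36 in 23 genes changed unequally (43.4%, beside 44.1% of 11801 pairs on the array; limma, Benjamini-Hochberg over all pairs). The share was therefore near that of the array, and the sizes were too: the median spread between the highest and the lowest difference of a gene was 0.34 over the 39 splicing genes and 0.31 over 7180 genes. The largest were those of Srsf3 (a difference of 1.17 between the changes of 1416150_PM_a_at and 1438215_PM_at, SE 0.10, adjusted p = 3.08e-05), Srsf10 (0.97, adjusted p = 0.000126), Sf3b4 (-0.80, adjusted p = 0.00016) and Snrpn (0.77, adjusted p = 0.000282). Prpf4b followed at -0.65, Hnrnpab at -0.62 and Snrpd3 at -0.59 (adjusted p = 0.000756, 0.000433 and 0.000432). The dimmer probe sets of the Snrpn, Prpf4b and Hnrnpab pairs lay below the median probe set of the array (4.80). The part of brightness in these differences was not tested. In 6 of the 39 genes (15.4%, beside 11.6% of genes with several probe sets) 1 probe set was called higher and another lower: Hnrnpa2b1, Hnrnpa3, Prpf4b, Snrpd3, Srsf2 and Srsf3. That number was 3 when any of control replicates 1 and 3 and hydrogen replicates 1 and 2 was left out. The unequal pairs numbered 22 without hydrogen replicate 2 (26.5%, beside 34.4% of the array). Leaving out each array in turn gave shares of 26.5% to 38.6%, beside 34.4% to 40.7% of the array.

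When every pair of probe sets of a gene was fitted, 62 of 154 splicing pairs were unequal (40.3%, beside 43.0% of the array). In that fit the falling and the rising probe set of Hnrnpa2b1 differed by -0.47 (adjusted p = 0.00298) and those of Srsf2 by -0.71 (adjusted p = 0.00116). Leaving out probe sets whose names mark shared probes (endings a_at, s_at and x_at, 57 of the 143) left 16 unequal pairs of 33 (48.5%, beside 45% of the 7224 pairs left on the array). Which transcripts each probe set reads was not determined here.

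**Figure D4:**
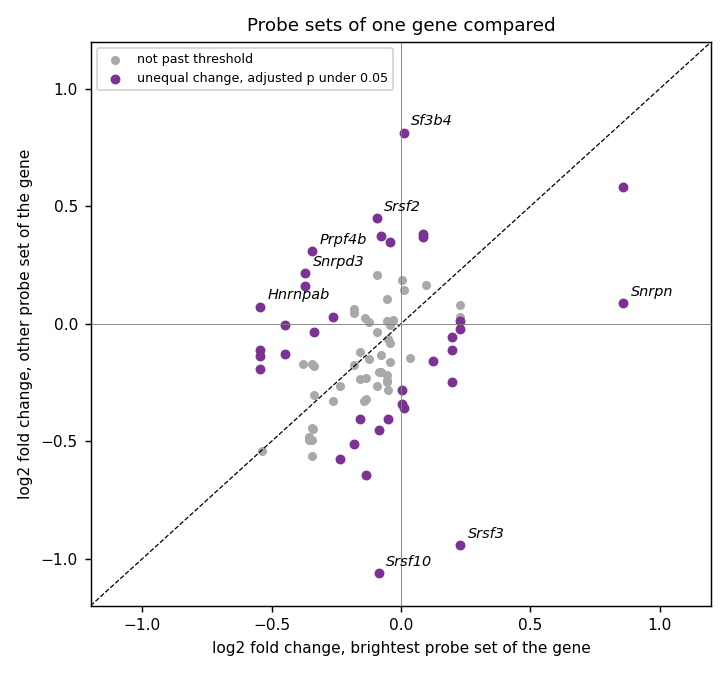
Each point is 1 of 83 pairs: the log2 fold change of the brightest probe set of a gene (x axis) against that of another probe set of the gene (y axis), with the dashed line marking equal change. Purple points are the 36 pairs with an unequal change, and the named ones farthest from the line are Srsf3, Srsf10, Sf3b4 and Snrpn.

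A smaller set of changes was called under each of these scalings. In 25 probe sets of 20 genes, 9 higher and 16 lower, the call and its direction were the same in 12 further fits. Those fits left out each array in turn, repeated the normalisation by quantiles, by cyclic loess or by centring, or changed the block, the weights or the prior variance. The same count over all probe sets of the array is not given here, so the 25 cannot be set against an array share. Among the 25 are the higher probe sets of Snrpn, Hnrnpa1, Sf3a2, Sf3b4 and Srsf2 given above. The lower ones include those given above for Srsf3, Srsf10, Srsf1, Srsf11, Hnrnpab, Hnrnpdl, Sf3b6, Prpf31, Prpf38b and Prpf4b. The others, named here after their values were seen, include Hnrnpc, which binds U-rich RNA (1418693_PM_at, -0.51), and Snrpa1, the U2 snRNP protein A′ (1417353_PM_x_at, -0.58). Dim probe sets of Prpf19 (1444939_PM_at, 0.37) and Snrpc (1444655_PM_at, 0.35), at log2 signals from 3.46 to 4.17, were higher while brighter probe sets of these genes did not pass. The fall of 1420365_PM_a_at of Hnrnpa2b1 completes the list.

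Splicing genes outside the name patterns were taken from 4 further lists, to be read beside 26.4% of all genes lower and 26.1% higher as deposited and 16.2% lower and 20.6% higher after cyclic loess. The genes named are the 3 with the smallest p of each list, not the largest changes. Of SR-like proteins and SR protein kinases, 12 of 20 were lower and 1 higher (6 and 2 after cyclic loess), with a median of -0.25. The 3 there were Rsrc2, an SR-related protein (7.47, 7.33 and 7.20 against 6.58, 6.28 and 6.20; -0.98, adjusted p = 0.000361), Tra2b, an exon-enhancer binding protein (-0.74, adjusted p = 0.000863), and Clk4, a kinase of SR proteins (-0.54, adjusted p = 0.0012). Of other RNA-binding regulators, 13 of 31 were lower and 1 higher (7 and 4 after cyclic loess), with Fubp1 (-0.64), Mbnl3 (-0.53) and the single rise, Rbfox2 (0.48; adjusted p = 0.000409, 0.000523 and 0.00117). Of core spliceosome genes, 22 of 49 were lower and 1 higher (9 and 6 after cyclic loess), with Lsm6 (-0.75), Zcrb1 (-0.54) and Cdc5l (-0.37), a member of the Prp19 complex (adjusted p = 0.000227, 0.000424 and 0.000814). Of snRNP assembly and exon junction genes, 4 of 18 were lower and 2 higher (3 and 5 after cyclic loess), with Gemin2 (-0.43), Strap (-0.38) and Gemin5 (0.32; adjusted p = 0.00212, 0.0039 and 0.0127). The fall of Strap did not pass after quantile normalisation (-0.15) or cyclic loess (-0.18). The array-wide median of genes was 0.01.

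Most splicing probe sets are bright, and bright probe sets of the whole array were lower in the hydrogen group. By the mean over all arrays, 96 of the 143 lay in brightness deciles 9 and 10, and of these 37 were lower (38.5%) and 8 higher (8.33%), beside 47.2% and 5.85% of all probe sets there. In deciles 6 to 8, 15 of 29 were lower and 3 higher (51.7% and 10.3%, beside 32.3% and 23.9%), and in deciles 1 to 5, 4 of 18 were higher and 0 lower (22.2% and 0%, beside 32% and 7.31%). The arrays also differed in spread, with an SD of all probe sets of 1.90 to 1.92 in controls and 1.80 to 1.81 in the hydrogen group. The part of this trend in the lower calls of the splicing probe sets as deposited was not tested. After cyclic loess the median difference of the 143 probe sets was 0.0005.

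**Figure D5:**
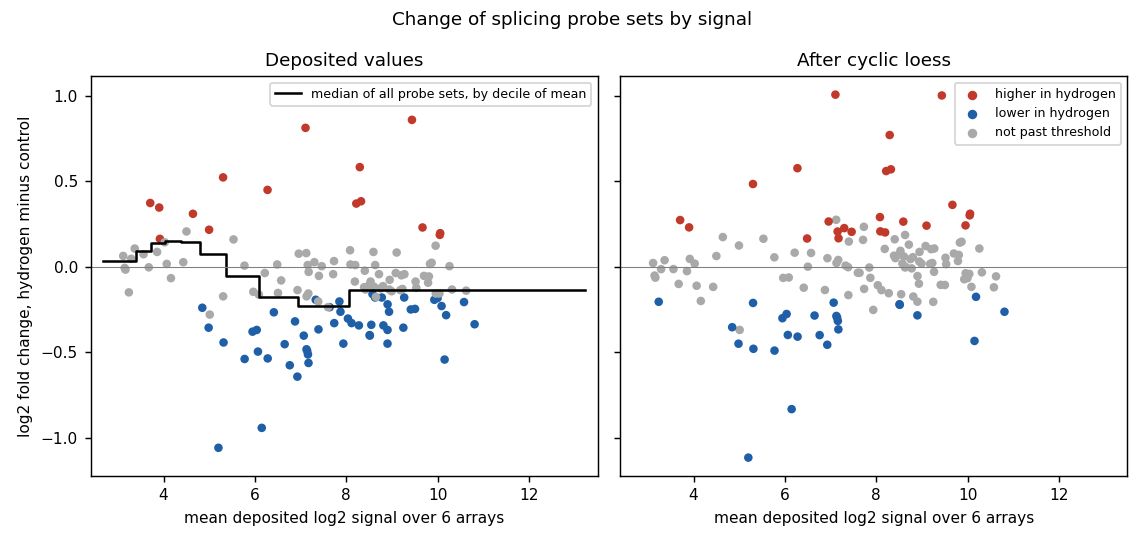
Log2 fold change (y axis) of the 143 probe sets against their mean deposited log2 signal (x axis), as deposited (left) and after cyclic loess (right); the line is the median of all probe sets of the array in each decile of brightness, and colours mark the limma call. As deposited 15 are higher and 52 lower, and after cyclic loess 24 and 26; the probe sets with the largest changes stay apart in both panels.

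The array medians were 4.75 to 4.76 in controls and 4.84 to 4.85 in the hydrogen group, and correlations over all probe sets were 0.996 to 0.997 within groups and 0.980 to 0.988 between them. The surfactant gene Sftpc, which marks lung epithelium, stood at 13.1 to 13.2 on all arrays, near the highest probe set mean (13.22). Of the other epithelial markers Foxj1 (-0.58), Hopx (-0.22) and Ager (-0.15) were lower, and the rest did not pass. Heart muscle markers were lower for 10 of 10 genes, with a summed linear signal of 7741 to 9521 in controls and 904 to 4006 in the hydrogen group. Cell cycle markers were lower for 6 of 10 and higher for 2, with sums of 937 to 1042 and 750 to 806. T cell markers were higher for 3 of 6 and lower for 1, and B cell markers higher for 3 of 5. Lower were 3 of 8 epithelial, 2 of 7 endothelial and 1 of 6 neutrophil markers. All these marker counts stand beside 26.1% of all genes higher and 26.4% lower as deposited. The heart muscle sum ranged widely among the hydrogen mice. As deposited, the median difference of the splicing probe sets from the control mean was -0.12, -0.13 and -0.12 in these mice. In them 101, 99 and 102 of the 143 lay below the control mean, with the counts over all probe sets not given here. The part of cell composition in these differences and in the single changes was not tested. The 3′ minus 5′ control signal overlapped between the groups for beta-actin (1.30 to 1.51 in controls, 1.31 to 1.55 in hydrogen) and Gapdh (0.77 to 1.14 and 0.90 to 1.31), and did not for 18S RNA (-0.74 to -0.45 and -1.19 to -1.01).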

How the data were processed

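RNA of 6 mouse lungs was measured on MG-430 PM array strips with a 3′ labelling kit, per the labels' protocols. The deposited table holds log2 signals per probe set and array; per the submitters' processing notes the authors used RMA and Affymetrix Expression Console, with versions and joint or separate normalisation not given in the sources used here. Of its probe sets, 45037 were tested after 104 control probe sets were set aside. Each group held 3 mice with 1 array each, and the number of arrays limits the precision; an exact test of 3 against 3 cannot go below p = 0.1.

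Genes were named by the platform annotation. A single symbol was given to 28898 probe sets, more than 1 to 551 and no symbol to 15588; 8 probe sets that name a splicing gene beside another gene were left out. All 143 member symbols matched RefSeq through Entrez identifiers. Of 69 protein-coding RefSeq genes that fit the patterns, 9 had no single-gene probe set here and are not analysed here.

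The test was limma's (lmFit, then eBayes; version 3.58.1 under R 4.3.3; two-sided, Benjamini-Hochberg over all rows, threshold 0.05), in 3 fits: all probe sets, 17097 genes by their brightest probe set, and 11801 pairs of probe sets of a gene. Adjusted p of single probe sets come from the first fit and those of the further splicing lists and markers from the second. Named genes were all of the SF3 and U2AF families, the 4 largest rises and 4 largest falls of each other family among called genes without overlap, genes with opposite calls, the 6 pairs with the smallest p, Srsf1, Srsf2, Hnrnpa1, Hnrnpa2b1, Snrpb and Prpf8, and 3 genes by p of each further splicing list. The members, lists and rules were chosen with earlier results of these data known. The fits were tested on simulated arrays. Alternatives were a replicate block, median centring, quantile normalisation, cyclic loess, array weights, a trended robust prior, leaving out dim or shared probe sets, gene means, and leaving out each array; every pair of probe sets was added after the data had been seen. Same-numbered mice did not deviate together (correlations 0.08, 0.03 and -0.11), so numbers were not used as pairs. Plots were made in Python 3.11.15 (matplotlib 3.10.9).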

Additional observations from a re-analysis of the deposited data

How the results depend on the processing

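The numbers of splicing probe sets called higher (15) and lower (52) and of genes called higher (4) and lower (20) depended on the scaling of the arrays. They were 9, 78, 2 and 34 after median centring, 26, 20, 14 and 5 after renewed quantile normalisation and 24, 26, 13 and 7 after cyclic loess. Without shared probe sets 8 were higher and 30 lower, with fewer probe sets tested, and the unequal pairs went from 36 of 83 to 16 of 33; with every pair fitted they were 62 of more pairs. Genes with opposite calls fell from 6 to 2 after centring, 3 after cyclic loess and 3 without shared probe sets. Leaving out each array in turn gave 12 to 13 and 36 to 46 probe sets, 3 to 4 and 13 to 19 genes, 22 to 32 pairs and 3 to 5 genes with opposite calls. The shares of unequal pairs were then 26.5% to 38.6%, beside 34.4% to 40.7% of the array. With the replicate block the numbers were 13, 44, 4, 15, 33 and 4. Same-numbered samples share only a number, so this is no paired result.

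Of 1066 values of 75 named results under these alternatives, 868 kept direction and side of the threshold, 129 lost the threshold, 24 gained it and 45 turned sign; the cause was not tested. After renewed quantile normalisation and cyclic loess the turned values were 0.109 and 0.0932 (Prpf8), 0.175 and 0.148 (Sf3a1), 0.139 and 0.130 (Sf3b2), 0.0411 and 0.00673 (Snrpd1), 0.129 and 0.105 (Srsf10), 0.00972 and 0.0335 (Srsf2), 0.0311 and 0.0173 (U2af1) and 0.0403 and 0.0305 (U2af2), and after quantile normalisation 0.00528 (1424252_PM_at of Hnrnpdl) and 0.0228 (1449121_PM_at of Srsf10). Centring gave -0.00333 (Hnrnpa1), -0.0867 (Hnrnpa2b1), -0.0800 (Sf3a3), -0.0567 (Sf3b3) and -0.0800 (Sf3b4). The mean of all probe sets gave -0.109 (Hnrnpa2b1), -0.0558 (Hnrnpa3), -0.173 (Sf3a3), -0.0567 (Sf3b3), 0.00222 (Snrpd3), 0.0527 (Srsf2) and -0.103 (Srsf3). Without shared probe sets another probe set stood for the gene, with -0.343 (Hnrnpa2b1), 0.0267 (Snrpb2) and 0.450 (Srsf2). Leaving out 1 array turned 5 genes near 0, which ranged from -0.0117 to 0.0233 (Hnrnpa2b1), -0.0250 to 0.0450 (Sf3a3), -0.0717 to 0.0133 (Sf3b2), -0.0533 to 0.0867 (Sf3b3) and -0.0467 to 0.0883 (Sf3b4).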
